A study of Sus scrofa with 6 samples.

Results

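The nuclear genes for subunits of the oxidative phosphorylation complexes were compared in prefrontal cortex of pigs exposed to valproic acid (VPA) before birth and of control pigs. RNA from 6 pigs (Sus scrofa) aged 3 months was sequenced. Animals 391, 392 and 393 carried the label VPA at 75 mg/kg, which the series places in early gestation. Animals 401, 402 and 408 served as controls, and their labels state that they had no treatment. Valproate is used against seizures and blocks histone deacetylases, and the series presents the exposed pigs as a model of autism. The labels give neither litter nor sex, so it is not known whether the animals of a group came from separate litters. The p-values set the difference between groups against the spread between these animals, and take no account of litter. Members were chosen by symbol: the NDUFA, NDUFB, NDUFC, NDUFS and NDUFV genes, SDHA to SDHD, UQCR genes, COX genes of the nuclear subunits, and ATP5 genes. The rule gave 68 of the 17201 genes listed. Of these, 36 belonged to complex I, 4 to complex II, 2 to complex III, 8 to complex IV and 15 to complex V. NDUFA4 was placed in complex IV, where its product resides. ATP5S, ATP5SL and NDUFA4L2 carry the family names without being subunits of a complex and were kept apart, which left 65 subunit genes. Other subunit genes of these complexes are not analysed here.

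Oxidative phosphorylation makes most of the ATP of neurons, which spend it on ion pumping and synaptic transmission. Complex I takes electrons from NADH and complex II from succinate. Both pass them through ubiquinone to complex III, which hands them by cytochrome c to complex IV, where oxygen is reduced. Complexes I, III and IV pump protons across the inner mitochondrial membrane, and complex V, the ATP synthase, uses their return flow to make ATP. A few core subunits are encoded in mitochondrial DNA, whose transcripts are not analysed here, while all subunits of complex II and most of the others are encoded in the nucleus.

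The deposited totals were 16285517 to 17989032 counts per library. The labelled tissue was set beside 6 markers of cortical glutamatergic neurons, all measured. Their summed level was 5415 to 5612 CPM in VPA animals and 5688 to 5859 CPM in controls (CPM, counts scaled to the file's total). The VPA range lay below the control range. CAMK2A and NRGN made the largest parts, at means of 2457 and 1789 CPM in VPA animals and 2430 and 1945 CPM in controls. The sum does not show which region was sampled, and markers of striatal neurons are given below. EIF1AY, a Y-linked gene, was at 26.7 to 30.5 CPM in 2 of 3 VPA animals and 2 of 3 controls, and at 0 and 0.111 CPM in the other VPA animal and control. No litter, sex or batch label allowed a split within groups. All 68 members passed the filter on low counts, and the lowest count of any of the 65 subunit genes in any library was 342 reads.

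No subunit gene differed between VPA and control cortex beyond the spread between animals once the test was adjusted. With edgeR's quasi-likelihood fit and Benjamini-Hochberg adjustment over 14373 genes at a threshold of 0.05, 0 of the 68 members passed. In the same fit 52 genes, 0.362% of those tested, passed, and genes past this threshold are termed called. DESeq2 called 0 members too, where it called 3.03% of all genes. At an unadjusted p under 0.05 edgeR had 3 members lower in VPA and 0 higher, where 7.47% of all genes tested were lower and 8.69% higher, 16.2% in all. DESeq2 had 3 of the 65 subunit genes past an unadjusted p of 0.05, where 1878 of all 14372 genes tested were past it. With limma on log2(FPKM + 1) it was 1 of the 65, where 2055 of all 13251 genes tested were past it. The lowest adjusted p of any member in edgeR was 0.236, for NDUFA5.

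The fold changes of the 65 subunit genes were small, between -0.16 and 0.11 on the log2 scale. More of them lay below 0 than above it, at 47 against 18, or 42 against 23 with library size as the only scaling, with a median of -0.029. That median was -0.012 without control 402, with 39 against 26, and -0.056 without VPA 392, with 52 against 13. It was -0.049 without control 401 and -0.046 without control 408. Of the 7981 genes tested with a mean of 20 to 1100 CPM, a window that holds all 65 subunit genes, 54.8% were negative, with a median of -0.013. Over all genes tested 49.5% were negative and the median was 0.0018. Most bounds were narrow: for 62 of the 65 genes the 95% interval of the fold change stayed within 1.25-fold either way. That was so for 46.6% of all genes tested and for 74.6% of the genes at 20 to 1100 CPM. The window is not matched on level: its median gene had 59.2 CPM, and the median subunit gene 104 CPM. The part of level in the width of the intervals was not tested. COX7A1, COX7C and NDUFB6 had intervals that crossed 1.25-fold, all on the lower side. The widest bounds of any subunit gene were 0.768-fold for COX7A1 and 1.19-fold for ATP5G2. Groups did not overlap in 4 genes on each side, or 6.15% higher and 6.15% lower in VPA, against 12.1% higher and 9.07% lower over all genes tested.

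**Figure D1:**
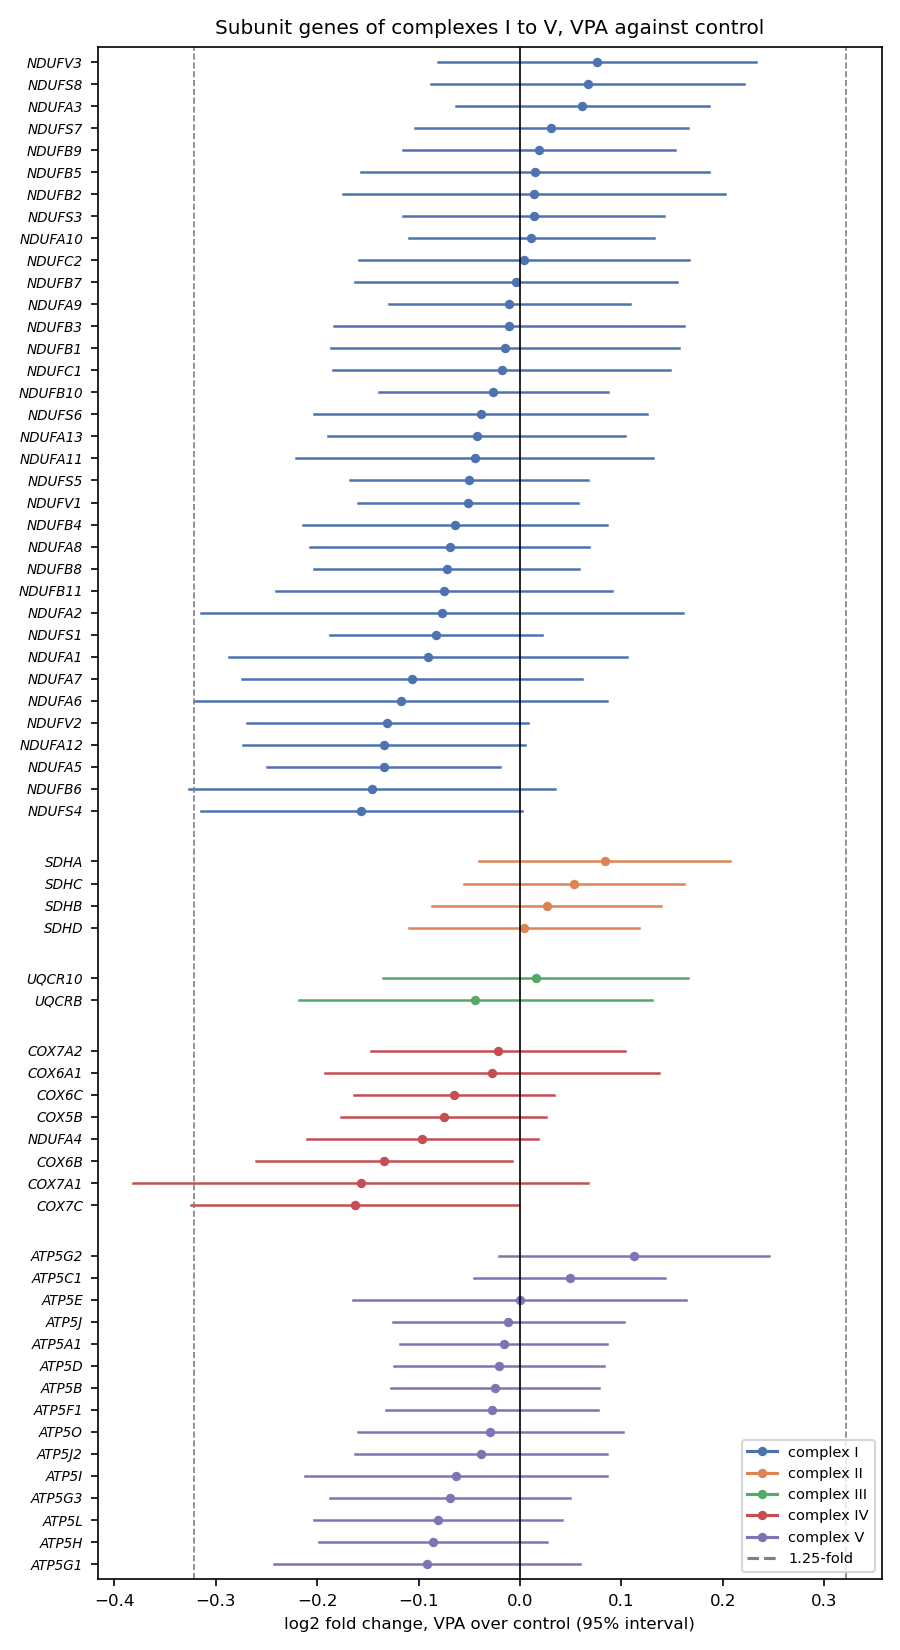
Log2 fold change of VPA over control for 64 of the 65 subunit genes, by complex (edgeR, point and 95% interval; dashed lines at 1.25-fold). The 4 genes of complex II lie above 0 and the 8 of complex IV below it, and the intervals of COX7A1, COX7C and NDUFB6 are those that cross 1.25-fold.

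Subunit genes were highly expressed in both groups. Levels between genes are compared as FPKM, fragments per kilobase of the authors' gene length, scaled to the library total. The median subunit gene had 94.7 FPKM over the 6 libraries, and the median gene tested 6.51 FPKM. By complex the median was 311 FPKM for complex IV, 172 for complex V, 144 for the 2 complex III genes, 109 for complex II and 85.2 for complex I. The ranges of the complexes overlapped widely. ATP5B, the catalytic beta subunit of ATP synthase, was the highest, at 553 ± 9.28 FPKM in VPA animals and 558 ± 15.1 FPKM in controls (SD, n = 3 each). ATP5A1, its alpha partner in the head of the enzyme, had 474 ± 5.03 FPKM in VPA animals and 476 ± 14.5 FPKM in controls. The enzyme holds both in equal number, and the ratio of ATP5A1 to ATP5B in FPKM was 0.861, 0.850 and 0.862 in VPA animals 391, 392 and 393, and 0.851, 0.862 and 0.846 in controls 401, 402 and 408. NDUFV3, an accessory subunit of complex I, and ATP5G2, a gene for the ring subunit c, were the lowest of the subunit genes. NDUFV3 had 26.4 ± 0.266 FPKM in VPA animals and 24.8 ± 1.38 FPKM in controls, and ATP5G2 26.8 ± 1.49 and 24.6 ± 1.10. The length behind a value weighs on such an order: the files' lengths ran from 317 bases for ATP5I to 4478 bases for ATP5G2, with a median of 829 bases in the subunit genes and 3755 bases in all genes tested.

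**Figure D2:**
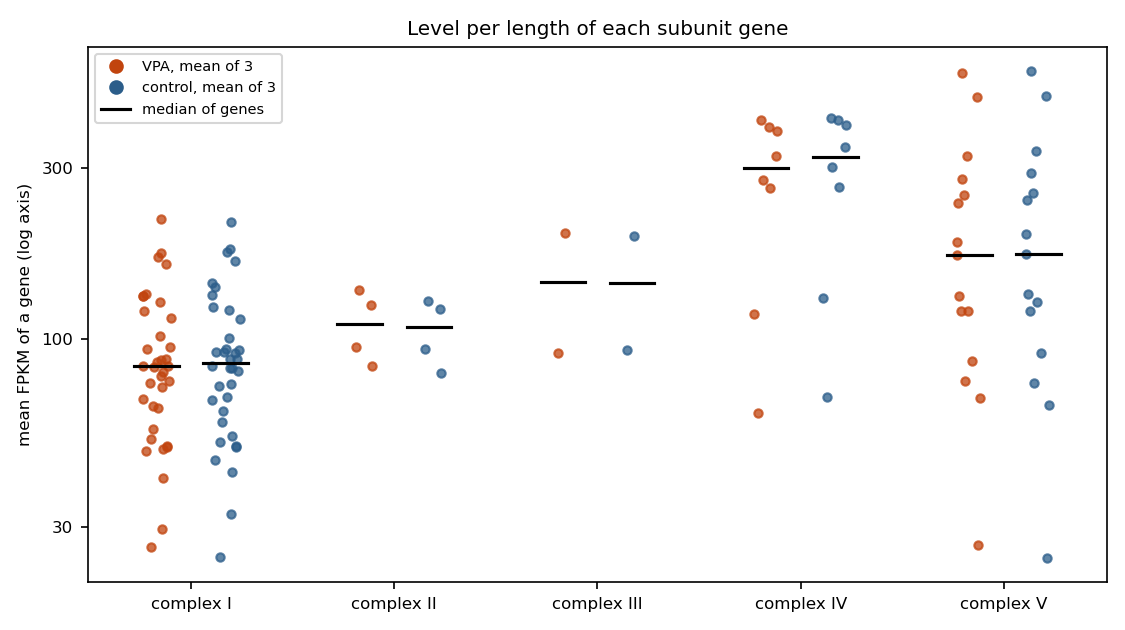
Mean FPKM of each subunit gene (log axis) in 3 VPA and 3 control animals by complex, with the median of the genes as a bar. Complex IV genes have the highest median, 311 FPKM over all libraries, and the 2 groups lie beside each other in every complex.

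Complex I was slightly lower in VPA cortex in most of its genes, none of them called. Of 36 genes 25 were negative and 11 positive, with a median log2 fold change of -0.041. The summed level was 2741, 2887 and 2846 CPM in VPA animals 391, 392 and 393, against 2893, 2934 and 2818 CPM in controls 401, 402 and 408, so the groups overlapped. Without control 402 the median was -0.013 with 22 of 36 negative, and without control 408 it was -0.043 with 30 negative.

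Most genes of the matrix arm that oxidises NADH, often called the N module, lay below 0. Their summed level was 642, 669 and 655 CPM in VPA animals 391, 392 and 393, against 693, 704 and 664 CPM in controls 401, 402 and 408, with VPA 392 above control 408. Of its 8 genes 7 were negative, or 6 without VPA 391 or control 402, with a median of -0.080 on the log2 scale. The grouping by arm follows the known structure of the enzyme and was chosen with the values known. NDUFS4, an accessory subunit whose loss causes Leigh syndrome in humans, had 55.5, 50.4 and 56.1 CPM in VPA animals 391, 392 and 393, against 57.1, 63.3 and 58.6 CPM in controls 401, 402 and 408. Every VPA animal was below every control, and the 95% interval of the fold change was 0.804 to 1.0016 (edgeR, adjusted p = 0.315). NDUFV2, which carries an iron-sulfur cluster, had 75.7, 77.7 and 70.2 CPM in VPA animals, against 78.9, 79.5 and 84.2 CPM in controls. Its groups did not overlap either, and the interval was 0.830 to 1.0052 (edgeR, adjusted p = 0.333). NDUFS1, the largest subunit of the arm, had 154, 152 and 147 CPM in VPA animals, against 163, 158 and 155 CPM in controls. The highest VPA animal lay just under the lowest control, and the interval was 0.878 to 1.02. NDUFA12 had 78.6, 89.0 and 87.0 CPM in VPA animals, against 92.3, 97.0 and 87.8 CPM in controls. Its groups overlapped by VPA 392 and control 408, with an interval of 0.827 to 1.0036 (edgeR, adjusted p = 0.325).

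Not all of this arm lay low. NDUFV1, which binds NADH and the flavin, had 128, 129 and 128 CPM in VPA animals, against 139, 129 and 128 CPM in controls. Only control 401 stood apart from the other animals, and the interval was 0.895 to 1.04. NDUFV3 had 41.5, 42.2 and 41.4 CPM in VPA animals, against 41.1, 39.7 and 36.9 CPM in controls. It was the positive member of the arm, with groups that did not overlap and an interval of 0.945 to 1.18.

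In the arm that reduces ubiquinone NDUFA5 lay lowest. This gene, for an accessory subunit at the stem of the complex, had 132, 135 and 141 CPM in VPA animals, against 146, 142 and 156 CPM in controls. All VPA animals lay below all controls, with a log2 fold change of -0.13 ± 0.052 SE and an interval of 0.841 to 0.986 (edgeR, adjusted p = 0.236). The core subunit genes NDUFS3, NDUFS7 and NDUFS8 had log2 fold changes of 0.014, 0.031 and 0.067. Of the 5 genes of this arm 4 were positive, but 3 in DESeq2, 2 without control 402 and 1 without VPA 392. The 2 genes placed between this arm and the N module were both negative, with a median of -0.11.

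The group taken as the membrane arm, which pumps protons, held 21 of the genes, 15 of them negative, with a median of -0.018. NDUFA9, which sits at the junction with the matrix arm, was counted in this group, at -0.011 on the log2 scale. NDUFB9, an accessory subunit and the highest complex I gene per length, had 144, 143 and 154 CPM in VPA animals, against 150.1, 150.4 and 131 CPM in controls. Control 408 was the lowest animal and VPA 393 the highest, and the groups overlapped. NDUFA3 was the membrane arm gene whose groups did not overlap, at 69.0, 70.3 and 68.7 CPM in VPA animals, against 68.3, 64.7 and 64.7 CPM in controls. The difference was small, with an interval of 0.957 to 1.14. NDUFB6 was the lowest of the arm by fold change, at -0.15 on the log2 scale, and was named after its values were seen.

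Complex II, succinate dehydrogenase, which also works in the citric acid cycle, lay higher in VPA cortex in each of its 4 genes, none of them called. The median log2 fold change was 0.040. Summed levels were 685, 677 and 661 CPM in VPA animals 391, 392 and 393, against 636, 662 and 628 CPM in controls 401, 402 and 408. VPA 393 lay just under control 402, and the other 2 VPA animals lay above it. SDHA, the flavoprotein that oxidises succinate, had 378, 374 and 351 CPM in VPA animals, against 338, 364 and 329.6 CPM in controls. The groups overlapped through VPA 393 and control 402, with an interval of 0.972 to 1.15 (edgeR, adjusted p = 0.502). SDHC, a membrane anchor, had 113, 112 and 113 CPM in VPA animals, against 108, 111 and 103 CPM in controls. These groups did not overlap, and the interval was 0.962 to 1.12. SDHB, the iron-sulfur subunit, averaged 105 ± 1.99 CPM in VPA animals and 103 ± 4.10 CPM in controls (SD, n = 3 each), and SDHD, the other anchor, had a log2 fold change of 0.0037. SDHB turned to -0.012 without control 402, and 3 of 4 genes were positive without a filter on low counts or when VPA 391, VPA 393, control 401 or control 402 was left out.

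Only UQCRB and UQCR10, accessory subunits of complex III, matched the rule there. UQCRB, next to the ubiquinone site, had 56.1, 55.9 and 60.3 CPM in VPA animals, against 52.6, 62.9 and 60.6 CPM in controls. UQCR10 had 82.8, 89.0 and 85.1 CPM in VPA animals, against 81.4, 92.0 and 78.5 CPM in controls. In both genes control 402 was the highest animal, and the 3 VPA animals lay inside the range of the controls. Their intervals were 0.860 to 1.09 for UQCRB and 0.911 to 1.12 for UQCR10.

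Complex IV, cytochrome c oxidase, was the group in which all 8 genes were negative, though none was called. The median log2 fold change was -0.086, and it ran from -0.12 to -0.071 when each animal was left out in turn. Without control 402 the count of negative genes was 6 of 8. The summed level was 1425, 1528 and 1460 CPM in VPA animals 391, 392 and 393, against 1495, 1610 and 1543 CPM in controls 401, 402 and 408. VPA 392 stood above control 401, so the groups overlapped. COX6B, which joins the monomers of the enzyme on its outer face, had 215, 235 and 207 CPM in VPA animals, against 233, 247 and 235 CPM in controls. VPA 392 lay within the control range, and the interval was 0.835 to 0.994 (edgeR, adjusted p = 0.278). COX7C, a small membrane subunit, had 168, 185 and 159.9 CPM in VPA animals, against 177, 185 and 208 CPM in controls. Control 408 was well above the others, and the interval was 0.798 to 0.9988 (edgeR, adjusted p = 0.304). Without control 408 the log2 fold change of COX7C was -0.092. NDUFA4, once counted with complex I and abundant among these genes, had 303, 326 and 335 CPM in VPA animals, against 329.8, 352 and 339 CPM in controls. VPA 393 overlapped control 401, with an interval of 0.864 to 1.0121.

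The remaining genes of complex IV lay closer to 0 or varied more among animals. COX5B, which binds zinc, had 186, 191 and 191 CPM in VPA animals, against 191, 203 and 199 CPM in controls, with VPA 392 just above control 401. COX6A1, the subunit form of most tissues, had 218, 237 and 224 CPM in VPA animals, against 212, 258 and 216 CPM in controls. Control 402 alone was high, and the log2 fold change of -0.028 became 0.063 without it. COX6C averaged 199 ± 5.01 CPM in VPA animals and 206 ± 5.90 CPM in controls (SD, n = 3 each).

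Tissue forms were compared as ratios. COX7A1 encodes the form typical of heart and skeletal muscle and COX7A2 the form found widely. COX7A1 had 20.7, 21.0 and 19.7 CPM in VPA animals, against 20.5, 25.5 and 21.9 CPM in controls, and COX7A2 had 121, 129 and 124 CPM in VPA animals, against 119, 134 and 123.1 CPM in controls. The log2 ratio of their FPKM was -2.08 ± 0.056 in VPA animals and -1.95 ± 0.079 in controls (SD, n = 3 each; exact two-sided permutation p = 0.1). That p is the smallest this permutation test can give with 3 against 3 animals, so it cannot pass 0.05 here. Over the 3 ratios tested, including those of NDUFA4L2 and ATP5G1 given next, the Benjamini-Hochberg adjusted p of this one was 0.300. NDUFA4L2, a paralogue of NDUFA4 induced by low oxygen, was low, at 3.77, 5.89 and 5.62 CPM in VPA animals and 4.11, 4.80 and 4.49 CPM in controls. Its log2 ratio to NDUFA4 was -8.74 ± 0.29 in VPA animals and -8.99 ± 0.066 in controls (SD, n = 3 each; exact two-sided permutation p = 0.4). Reads of such close paralogues, and of the processed pseudogenes that many subunit genes have, could have been shared in counting, and how the authors treated such reads is not stated in the sources used here.

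**Figure D3:**
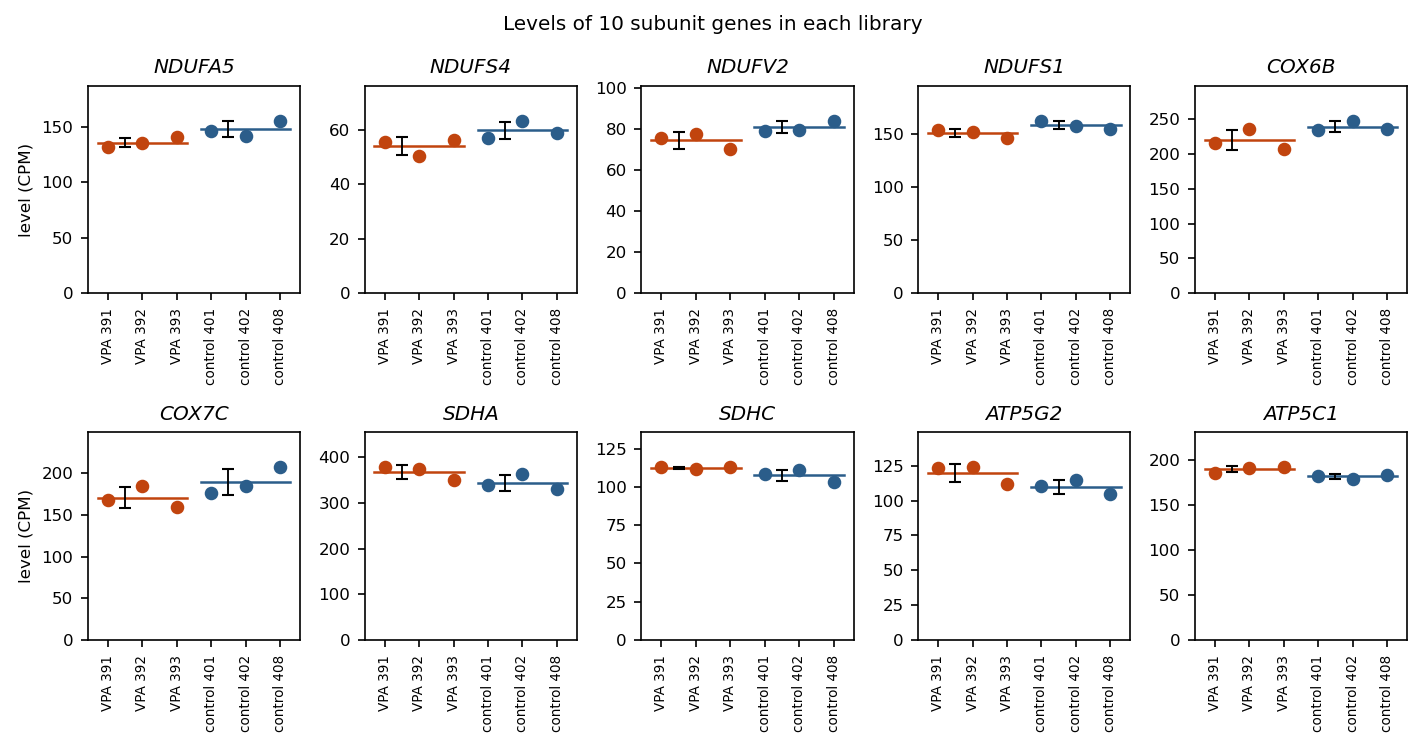
CPM of 10 subunit genes in each animal (points), with group mean (line) and SD (black bar, n = 3). In NDUFA5, NDUFS4, NDUFV2 and NDUFS1 every VPA animal lies below every control, in SDHC and ATP5C1 every VPA animal lies above, and all differences are small against the level. Some of the genes drawn were chosen after their values were seen. NDUFA3 and NDUFV3, not drawn, also have every VPA animal above every control, which makes 4 of the 65 subunit genes on each side. That is 6.15% each way, against 12.1% higher and 9.07% lower over all genes tested.

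Complex V, the ATP synthase, was close to level. Of its 15 genes 13 were negative, or 11 with library size as the only scaling, and the median log2 fold change was -0.027. Summed levels were 3977, 4083 and 3982 CPM in VPA animals 391, 392 and 393, against 4105, 4130 and 3914 CPM in controls 401, 402 and 408, with control 408 the lowest of all. The catalytic ATP5B had 1030.3, 1046 and 1012 CPM in VPA animals, against 1068, 1035 and 1012 CPM in controls, and an interval of 0.916 to 1.06. ATP5A1 had 879, 882 and 865 CPM in VPA animals, against 900.3, 884 and 848 CPM in controls, and an interval of 0.921 to 1.06. For both, the largest subunit genes of the enzyme by counts, the groups overlapped almost fully. ATP5C1, the gamma shaft that turns within the head, had 186, 191 and 193 CPM in VPA animals, against 183, 179.6 and 184 CPM in controls. Every VPA animal was above every control, by little, with an interval of 0.969 to 1.10.

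The c ring, which turns with the passing protons, is made from 3 genes that encode the same mature protein. ATP5G2 was the gene with the highest fold change of complex V, at 124, 124 and 112 CPM in VPA animals, against 110.5, 115 and 105 CPM in controls. VPA 393 lay among the controls, and the interval was 0.986 to 1.19 (edgeR, adjusted p = 0.391). ATP5G1 had 97.3, 111 and 114 CPM in VPA animals, against 122, 108 and 109.7 CPM in controls, and ATP5G3 had 192, 196 and 196 CPM in VPA animals, against 215, 205 and 188 CPM in controls. Both had negative fold changes, of -0.092 and -0.069 on the log2 scale, with overlapping groups. ATP5G1 was at -0.039 without VPA 391 and -0.044 without control 401, and ATP5G3 at -0.035 without control 401 and -0.12 without control 408. Per length ATP5G3 gave the most, 66.9%, 65.0% and 64.8% of the FPKM of the 3 genes in VPA animals 391, 392 and 393, and 65.6%, 66.8% and 64.8% in controls 401, 402 and 408. The log2 share of ATP5G1 did not separate the groups, at -1.83 ± 0.081 in VPA animals and -1.80 ± 0.058 in controls (SD, n = 3 each; exact two-sided permutation p = 0.6). The 7 stalk and membrane genes were all negative, or 6 of them with library size as the only scaling and 5 without VPA 391 or control 402. They ranged from -0.086 for ATP5H, of the peripheral stalk, to -0.011 for ATP5J on the log2 scale. ATP5L, a membrane subunit at the dimer interface, had 239, 231 and 242 CPM in VPA animals, against 242, 268 and 237 CPM in controls, with control 402 above the rest.

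Complex II was also set against complexes IV and I as a ratio in each animal. The summed CPM of the 4 complex II genes over that of the 8 complex IV genes was 0.481, 0.443 and 0.453 in VPA animals 391, 392 and 393, against 0.425, 0.411 and 0.407 in controls 401, 402 and 408. Over complex I it was 0.250, 0.234 and 0.232 in VPA animals and 0.220, 0.226 and 0.223 in controls. Neither ratio overlapped between groups, and neither depends on how libraries are scaled. They were chosen after the values were seen, from among other possible pairs of complexes, and are given as a description with no test. Of all genes tested, 21.2% had groups that did not overlap in 1 direction or the other. SDHA alone, whose groups overlapped, averaged 368 of the 674 CPM of complex II in VPA animals and 344 of 642 CPM in controls. In the list of citric acid cycle genes, which complex II also serves, 8 of 17 were positive and 9 negative, with a median of -0.0074.

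**Figure D4:**
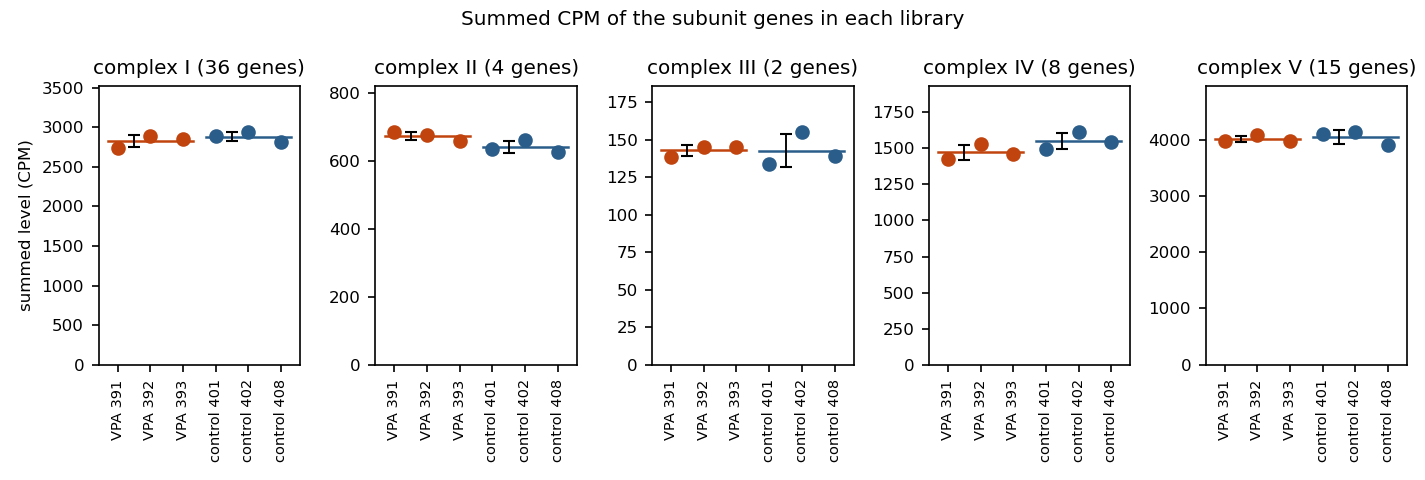
Summed CPM of the subunit genes of each complex in each animal, with group mean (line) and SD (black bar, n = 3). Complex II is higher on average in VPA animals and complex IV lower, and the ranges of the groups overlap in all 5 complexes.

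Some animals of both groups were often the highest or the lowest across the subunit genes, though not alike in every complex. Control 402 was the highest of the 6 libraries in 28 of the 65 subunit genes, and VPA 391 and control 408 were the lowest in 21 each. Median deviations from the mean of the 6 libraries, on the log2 scale, were -0.042, 0.019 and -0.029 in VPA animals 391, 392 and 393, and -0.00078, 0.058 and -0.021 in controls 401, 402 and 408. The 706 tested genes with a length under 1000 bases had -0.027, 0.034 and -0.0070 in the same VPA animals and -0.0024, 0.056 and -0.030 in the same controls. Cytosolic ribosomal protein genes, which are also short, had 0.023, 0.085 and -0.035 in VPA animals and -0.072, 0.078 and -0.061 in controls. Control 402 and VPA 392 were thus high in each of these sets. Complexes could differ within an animal. VPA 391 was at 0.035 in complex II and -0.056 in complex IV, and control 408 at -0.029 in complex II and 0.042 in complex IV. The part of transcript length or RNA quality in the subunit genes' values was not tested. The median SD within groups was 0.070 on the log2 scale for subunit genes, 0.083 for genes with a mean of 20 to 1100 CPM and 0.12 for all genes tested.

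**Figure D5:**
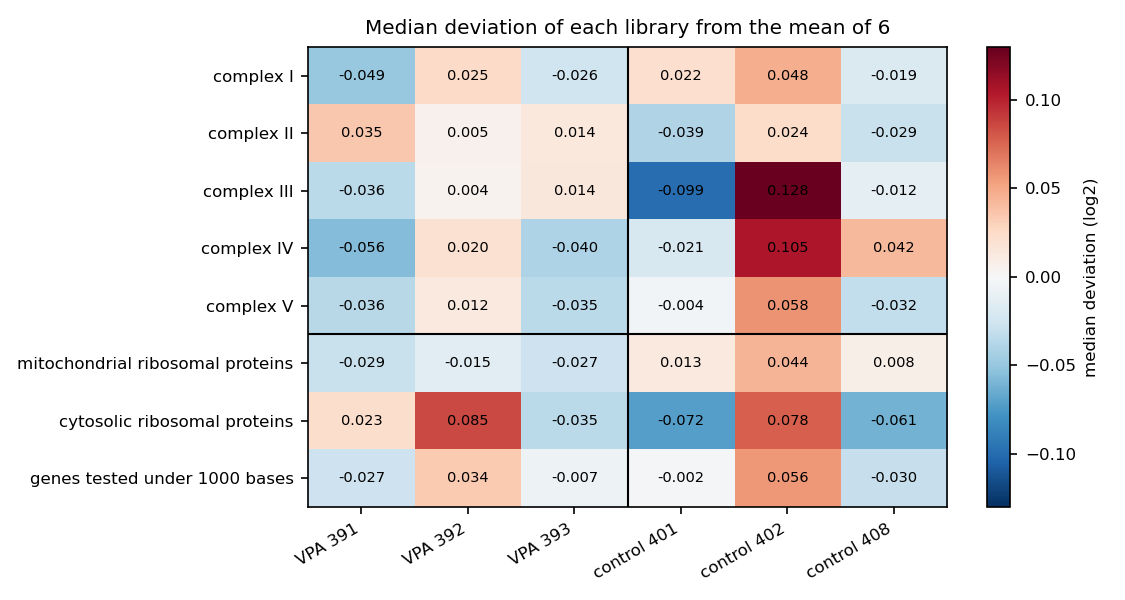
Median log2 deviation of each library from the mean of the 6 libraries, for the subunit genes of each complex (upper rows) and 3 other sets (lower rows). Control 402 is above the mean in every row, and VPA 391 is below it in complexes I, III, IV and V.

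Other genes of the pathway, from lists chosen with earlier results of these data known, had no called member. Of 47 assembly factors listed, which build the complexes, 29 were measured. The other 18, among them SURF1, SCO1 and further complex IV factors, are not analysed here. Of the 29, 12 were positive and 17 negative, with a median log2 fold change of -0.024. NDUFAF4, an assembly factor of complex I, had 11.1, 11.2 and 11.2 CPM in VPA animals, against 13.8, 13.5 and 14.1 CPM in controls. The groups were far apart for their spread, at -0.32 ± 0.10 SE on the log2 scale, but the gene was not called (edgeR, adjusted p = 0.155). ECSIT, another factor of complex I assembly, averaged 38.3 ± 3.56 CPM in VPA animals and 44.9 ± 2.32 CPM in controls (SD, n = 3 each; edgeR, adjusted p = 0.192).

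Electron carrier and transport genes were at -0.022 in the median, with 9 of 20 positive. CYCS, cytochrome c, which brings electrons to complex IV, had 185, 189.9 and 188 CPM in VPA animals, against 197, 206 and 201 CPM in controls. All VPA animals lay below all controls, with a log2 fold change of -0.12 ± 0.044 SE (edgeR, adjusted p = 0.222). COQ4, needed for ubiquinone synthesis, averaged 47.7 ± 4.26 CPM in VPA animals and 37.4 ± 6.31 CPM in controls (SD, n = 3 each; edgeR, adjusted p = 0.196). Of the cycle genes, IDH3A, a subunit of isocitrate dehydrogenase, averaged 191 ± 12.9 CPM in VPA animals and 209 ± 5.07 CPM in controls, and SUCLA2, a succinyl-CoA ligase subunit, 167 ± 7.63 CPM in VPA animals and 183 ± 10.9 CPM in controls (SD, n = 3 each).

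The 15 regulators of mitochondrial biogenesis had 6 positive and 9 negative members and a median of -0.061. TFB2M, a mitochondrial transcription factor, averaged 8.91 ± 0.218 CPM in VPA animals and 10.6 ± 0.182 CPM in controls (SD, n = 3 each; edgeR, adjusted p = 0.273). ESRRG, an estrogen-related receptor that drives oxidative genes, averaged 23.3 ± 1.28 CPM in VPA animals and 20.6 ± 0.0766 CPM in controls (edgeR, adjusted p = 0.366). Mitochondrial ribosomal protein genes, which serve the subunits made inside mitochondria, had 50 of 73 tested negative and a median of -0.036. MRPL2 averaged 25.8 ± 1.11 CPM in VPA animals and 30.8 ± 0.477 CPM in controls, and MRPL37 86.3 ± 5.79 CPM in VPA animals and 70.2 ± 9.09 CPM in controls (SD, n = 3 each). Cytosolic ribosomal protein genes lay the other way, with 64 of 81 positive and a median of 0.043. RPL7L1, a related gene outside the ribosome proper that the name pattern counted among these 81, was at -0.20 on the log2 scale.

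Markers of 12 cell types were set beside these values, and some lists lay near 0 while others did not. Glutamatergic neuron markers had 1 of 6 positive, with a median log2 fold change of -0.15. Oligodendrocyte markers had 8 of 8 positive and a median of 0.34, with summed levels of 16030 to 18151 CPM in VPA animals and 12353 to 16639 CPM in controls. Astrocyte markers had 6 of 6 positive and a median of 0.21, at 8170 to 9481 CPM in VPA animals and 7525 to 8214 CPM in controls. Striatal neuron markers had 8 of 8 positive, at 160 to 537 CPM in VPA animals and 124 to 140.0 CPM in controls. Each of the 8 was highest in VPA 393. Oligodendrocyte precursor markers had 5 of 6 positive, with a median of 0.21. Interneuron markers had 4 of 6 positive, microglia markers 4 of 6 and endothelium markers 3 of 5, with medians of 0.054, 0.087 and 0.035. Choroid plexus markers had 2 of 6 positive and a median of -0.14. TTR, the 1 called marker, had 4.42, 4.85 and 9.84 CPM in VPA animals, against 0.611, 1.42 and 1.19 CPM in controls. HBB, the beta globin of red blood cells, was at 123.1, 199 and 191 CPM in VPA animals 391, 392 and 393, against 23.1, 202 and 46.4 CPM in controls 401, 402 and 408. No measured marker was at 0 in all libraries. Mural cell markers, of the vessel wall cells in which NDUFA4L2 is a known marker in mice, had 7 of 8 positive and a median of 0.23. They summed to 245 to 346 CPM in VPA animals and 236 to 273 CPM in controls. Markers of striated muscle, the home of the COX7A1 form, summed to 15.0 to 17.5 CPM in VPA animals and 11.5 to 16.8 CPM in controls. The part of cell makeup in the subunit genes' values was not tested. In such tissue RNA fewer cells of a type and less RNA per cell cannot be told apart.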

How the data were processed

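For every library the authors deposited a table of raw counts and a table of FPKM, per the file headers. Per the labels' protocols, TRIzol was used for extraction and a VAHTS Universal V6 kit for library construction. How reads were aligned and counted, against which build, and whether strand was kept is not stated in the sources used here, so no coordinates or sequences are printed. All 97071 nonzero deposited FPKM values equalled the count over the file total and a whole gene length (relative tolerance 0.001), so both units hold 1 measurement. Of 17201 names 24 had been turned into dates. They stayed in the library sizes. All 68 member names were in the RefSeq table of Sscrofa11.1, used for names only.

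Counts were fitted with edgeR 4.0.16 in R 4.3.3: filterByExpr (14373 genes kept), TMM factors (0.993 to 1.01), glmQLFit and glmQLFTest on all 6 libraries without covariates, and Benjamini-Hochberg adjustment (0.05 taken as the threshold). Standard errors came from the F statistic, and 95% intervals from the fit's moderated degrees of freedom. For deviations, log2 CPM took 2 as prior count. The functions were tested on simulated data. Counts of all library pairs differed by more than sampling noise (chi-square per degree of freedom of 5.74 to 12.8 over 15 pairs). Intervals cover the spread between these animals.

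Members and lists were chosen with earlier results of these data known. Named genes are, per complex, the 3 with the lowest p and the highest and lowest by FPKM, set isoform and core genes, and the 2 of each list with the lowest p. Genes with groups that do not overlap, and some with the widest intervals or lowest values, were named after their values were seen. A few genes that the rule would name are not reported here. Alternatives were scaling by RLE or by library size alone, no filter, a floor of 1 CPM on the mean, DESeq2 1.42.0, limma 3.58.1 with trend on log2(FPKM + 1) or log2(FPKM + 0.1) above a mean FPKM of 0.5 or without that filter, EIF1AY as a covariate, a threshold of 0.1, NDUFA4 in complex I, and each library left out.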

Additional observations from a re-analysis of the deposited data

How the results depend on the processing

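The count of called members was 0 in edgeR under every alternative, in DESeq2, in limma and with each library left out, also at a threshold of 0.1. The count of called genes in all, 52, was 141 without a filter, 435 in DESeq2, 2 in limma on log2(FPKM + 1) or log2(FPKM + 0.1) and 1 in limma without a filter, and 0 to 66 with a library left out, at 0 without VPA 391 or VPA 392, 1 without VPA 393, 5 without control 402 and 2 without control 408. The cause was not tested. The median of complex III was 0.0013 and 0.0012 in limma, and those of the other complexes kept their sign in every alternative. With a library left out the median of all 65 subunit genes ran from -0.056 to -0.012, that of complex I from -0.056 to -0.013, complex II from 0.026 to 0.048, complex III from -0.072 to 0.041, complex IV from -0.12 to -0.071 and complex V from -0.059 to -0.016. With a library left out UQCR10 ran from -0.029 to 0.080, UQCRB from -0.13 to 0.0022, NDUFB9 from -0.042 to 0.047, SDHB from -0.012 to 0.050, COX6A1 from -0.091 to 0.063, COX7A2 from -0.066 to 0.021 and the log2 share of ATP5G1 from -0.062 to 0.016. No paired analysis was possible because the groups share no replicate number.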

Other observations

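Some related genes stand outside the naming rule. ATPIF1, which encodes the inhibitor that holds back ATP hydrolysis by complex V, averaged 98.5 ± 8.54 CPM in VPA animals and 103 ± 4.64 CPM in controls (SD, n = 3 each; log2 fold change -0.075 ± 0.067 SE). NDUFAB1, the acyl carrier protein that is also a subunit of complex I, averaged 82.6 ± 4.05 CPM in VPA animals and 83.1 ± 1.42 CPM in controls. COX17, a copper chaperone of complex IV, averaged 34.8 ± 2.26 CPM in VPA animals and 35.3 ± 1.16 CPM in controls. COX8H was low, at 0.957, 0.798 and 1.39 CPM in VPA animals 391, 392 and 393, and 1.11, 1.36 and 1.02 CPM in controls 401, 402 and 408. Of the names kept apart from the complexes, ATP5SL had 96.3, 102 and 95.6 CPM in VPA animals, against 108, 95.6 and 109 CPM in controls, and ATP5S had 17.8, 18.7 and 23.0 CPM in VPA animals, against 19.1, 16.5 and 18.5 CPM in controls. None of these 6 genes was called, and their groups overlapped.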
